A study of Arabidopsis thaliana with 12 samples.

Results

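IMA1 encodes a short peptide that Arabidopsis makes more of when iron is scarce, and its effect on the root transcriptome of plants with a full iron supply is described here across genes and functions. The comparison set roots of an IMA1 overexpression line (IMA1 OE) against roots of a transgenic control line that overexpressed the yellow fluorescent protein EYFP (EYFP OE). Its members were all gene rows of the table for these roots with a value of at least 1 in 2 or more of its 4 libraries, with the rows for transgene constructs left out. This kept 19741 of 33607 gene rows. The 4 libraries, 2 for each line, are 4 of 12 samples in a series that also covered rosettes and iron-deficient IMA1 OE plants. Iron-deficient plants were given 100 µM ferrozine, and plants on full medium 0.

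Both lines were in the Columbia-0 background, and in both the 35S promoter drove the transgene, the EYFP sequence in one and the IMA1 open reading frame in the other. That promoter is active in most cell types, so IMA1 was not limited to the cells in which the native gene acts. Each transgene was represented by 1 line, so the transgene and anything else in which the lines differ cannot be told apart. Seedlings were raised on complete ES medium with 1.5% sucrose for 10 days, moved to fresh complete medium, and harvested 72 hours later, with 25 seedlings on a plate. Nothing in the labels says that the 2 libraries of a group came from separate cultures, so p-values measure only the spread between these libraries, which may be technical.

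Roots of Arabidopsis take up iron by acidifying the soil, reducing ferric to ferrous iron at the cell surface and carrying ferrous iron in through IRT1. IRT1 also admits zinc, manganese, cobalt and nickel, and transporters of the vacuole membrane store such metals out of the way. Iron that exceeds demand is held in the plastid protein ferritin or moved into vacuoles, and the ferritin gene FER1 is known to be induced by excess iron, whereas uptake genes are induced by iron shortage. IMA peptides are known to act upstream of the subgroup Ib bHLH transcription factors, which with the factor FIT turn on the uptake genes.

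Values are the normalised expression deposited by the authors, which has neither a unit nor a read depth, and log2 differences are of log2(value + 1), IMA1 OE minus EYFP OE. A gene is said to have risen or fallen where the adjusted p of limma's moderated test was under 0.05. Because 2 libraries against 2 give few such calls, genes are also counted by size alone, as past 1.5-fold on the same scale with groups that do not overlap, which is a description and not a test.

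The upstream sequences of 4 genes are shown first, because these genes carry the regulator, kelch repeat and glutathione transferase results given further on. The letters searched were the G-box (CACGTG, a common site of bHLH factors), the core of the W-box (TTGAC, the site of WRKY factors), the abscisic acid element ABRE (ACGTGNC), the phosphate starvation element P1BS (GNATATNC) and the iron element IDRS, on both strands. G-box and ABRE matches can overlap. Each sequence is the 250 bases before the annotated start, 5′ to 3′ on the gene's strand, from RefSeq assembly TAIR10.1. Capitals mark the G-box in bHLH38 and BHLH100, and the W-box core or its reverse complement in AT3G07720 and GSTL1, while other matches are left in lower case. The windows lie at chr3:21085246-21085495 on the minus strand for bHLH38, chr2:17199455-17199704 on the minus strand for BHLH100, chr3:2464985-2465234 on the plus strand for AT3G07720 and chr5:630498-630747 on the plus strand for GSTL1.
bHLH38: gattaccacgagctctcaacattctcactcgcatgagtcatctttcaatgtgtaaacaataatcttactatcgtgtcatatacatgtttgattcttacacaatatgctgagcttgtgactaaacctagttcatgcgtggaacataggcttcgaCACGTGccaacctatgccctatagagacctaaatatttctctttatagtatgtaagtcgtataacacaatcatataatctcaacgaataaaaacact
BHLH100: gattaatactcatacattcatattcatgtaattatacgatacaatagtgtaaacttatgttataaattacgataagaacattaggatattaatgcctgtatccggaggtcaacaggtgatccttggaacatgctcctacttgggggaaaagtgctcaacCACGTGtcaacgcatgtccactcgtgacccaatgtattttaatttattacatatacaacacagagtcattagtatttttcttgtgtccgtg
AT3G07720: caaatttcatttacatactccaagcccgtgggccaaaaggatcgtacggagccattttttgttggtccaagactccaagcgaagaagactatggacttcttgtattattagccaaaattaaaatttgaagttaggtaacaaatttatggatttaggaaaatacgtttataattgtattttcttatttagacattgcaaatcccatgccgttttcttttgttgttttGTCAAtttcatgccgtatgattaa
GSTL1: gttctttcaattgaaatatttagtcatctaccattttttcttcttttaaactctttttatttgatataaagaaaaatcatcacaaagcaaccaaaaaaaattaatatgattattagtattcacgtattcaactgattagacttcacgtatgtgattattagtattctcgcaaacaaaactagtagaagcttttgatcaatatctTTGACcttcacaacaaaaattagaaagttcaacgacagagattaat

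The G-box began 97 bases before the start in bHLH38 and 91 bases before it in BHLH100, and the windows of their relatives bHLH39 and BHLH101 held none. The W-box core stood 24 bases before the start in AT3G07720 and 46 bases before it in GSTL1, and the windows of AT2G05920 and bHLH38 held none. The window of BHLH100 also held 2 W-box cores and 1 ABRE match, and that of bHLH38 held 2 ABRE matches. Over 19593 windows of tested genes a G-box was found in 7.212%, against 4.278% of the 187 windows of genes past 1.5-fold higher and 10.59% of the 85 windows of genes past 1.5-fold lower. The W-box core was in 45.18% of all windows, in 63.1% of those of the higher genes and in 37.65% of those of the lower genes. ABRE letters were in 9.33%, 8.556% and 12.94% of the same windows, and P1BS letters in 5.39%, 5.348% and 5.882%. IDRS letters were in 0 windows. These shares describe letters in the windows and were not tested.

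The mature arms of miR398b are shown because the precursor of this microRNA, which is known to act on messengers of copper proteins, was lower in IMA1 OE roots. They are read from RefSeq at chr5:4691033-4691053 and chr5:4691107-4691127 on the plus strand, with the seed, bases 2 to 8, in capitals.
miR398b-5p: aGGGUUGAuaugagaacacac
miR398b-3p: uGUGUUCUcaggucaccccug

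The lines were as labelled. The native IMA1 row (AT1G47400) stood at 6.71 and 1.96 in the EYFP OE roots against 410 and 366 in the IMA1 OE roots. Its log2 difference of 6.35 did not pass the threshold (SE 0.45, limma adjusted p 0.0764), with EYFP OE libraries that differed severalfold, and without EYFP OE replicate 1 it was 7.04 and passed (limma adjusted p 0.0251). How reads were divided between this row and the row for the IMA1 construct is not given in the sources used here. Across tested genes, Pearson's r between replicates was 0.989 in EYFP OE and 0.983 in IMA1 OE, and genes are not independent replicates. The summed value of 28 leaf photosynthesis markers was 1300 and 1245 in EYFP OE roots against 720 and 1072 in IMA1 OE roots, and IMA1 OE replicate 1 was the low library. In bulk samples, fewer cells of a type and less RNA per cell cannot be told apart.

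Root identity markers were at similar levels in both lines. Of 12 such markers, all tested, 8 were higher and 4 lower in IMA1 OE, with a median log2 difference of 0.02. CASP1, which organises the Casparian strip of the endodermis, was at 79.1 and 78.7 in EYFP OE against 80.4 and 79.4 in IMA1 OE. SCR, a transcription factor of the endodermis, was at 18 and 16.2 against 17.7 and 17.2. The marker with the largest difference was PYK10, a beta-glucosidase of ER bodies, at 2203 in each EYFP OE library and at 3050 and 4080 in IMA1 OE, a log2 difference of 0.68 (limma adjusted p 0.678). Exact values recur between libraries of the deposited signal, as for PBP1, at 767.28 in EYFP OE replicate 1 and in IMA1 OE replicate 2. Equal values are therefore not read as agreement of replicates, and their cause was not tested.

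Few genes passed the test, and none of those that did belongs to the lists of iron genes described further on. This concerns list membership only, as the called gene AT3G07720 had a larger difference in iron-deficient IMA1 OE roots, given below. Of the 19741 genes, 7 were called, which is 0.0355%, with 4 higher in IMA1 OE (0.0203%) and 3 lower (0.0152%). At an unadjusted p under 0.05 there were 834 genes, 4.22% of those tested. Past 1.5-fold without overlap there were 283 genes (1.43%), of which 193 were higher (0.978%), the overexpressed gene among them, and 90 lower (0.456%). The groups did not overlap for 30% of all tested genes, a log2 difference above 0 was found for 46.1%, and the median log2 difference was −0.01. The authors' deposited table gave a p under 0.05 to 149 of the tested genes (0.755%), 107 higher and 42 lower, and these include the 7 genes called here.

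**Figure D1:**
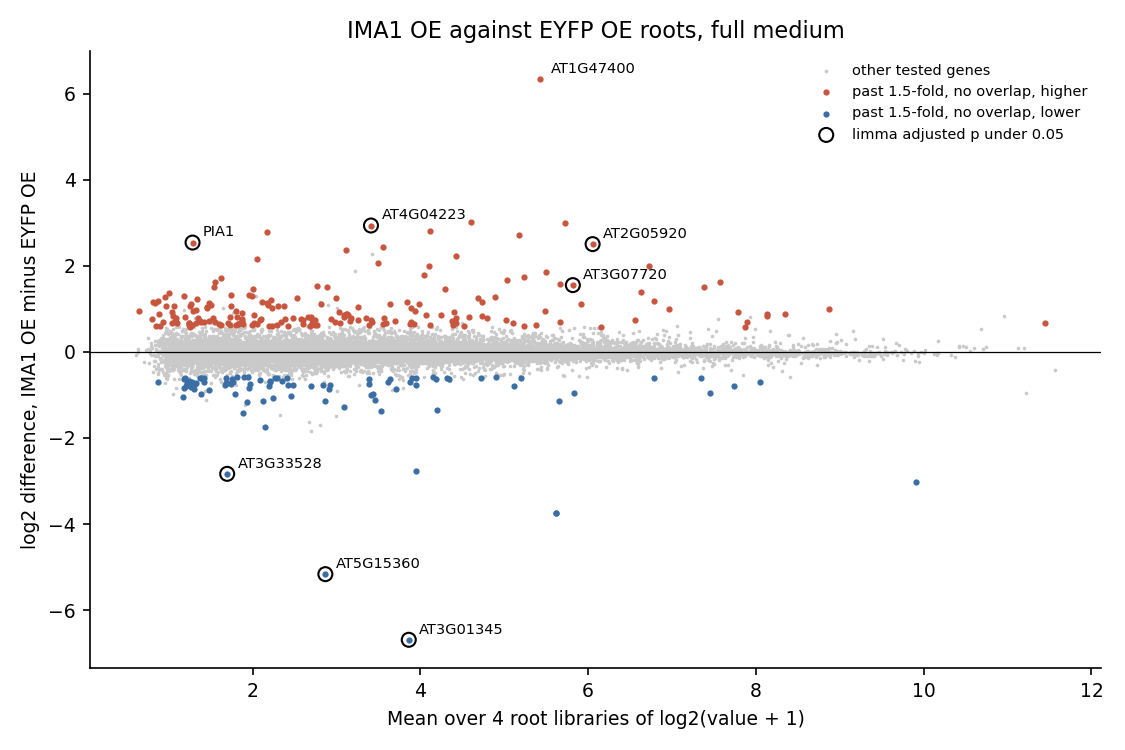
Log2 difference, IMA1 OE minus EYFP OE, of each of 19741 tested genes (vertical axis) against its mean log2(value + 1) over the 4 root libraries (horizontal axis). Red and blue points are the 193 higher and 90 lower genes past 1.5-fold without overlap, grey points the other genes, and rings the 7 genes that passed limma's adjusted threshold; most grey points lie close to 0.

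The plot of differences against expression level shows the 7 called genes spread over low and high levels and AT1G47400 standing above all other genes. Of the genes that rose, AT2G05920 encodes a subtilase, a class of secreted serine proteases. It stood at 27 and 26.7 in EYFP OE against 156 and 158 in IMA1 OE, and replicates differed little beside the distance between lines. Its log2 difference was 2.50 (SE 0.06, limma adjusted p 0.00419), the smallest adjusted p among all tested genes. It lies at chr2:2269315-2272452 on the minus strand of TAIR10.1.

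AT3G07720, at chr3:2465235-2467270, encodes a protein with kelch repeats. It was at 32 and 31.9 in EYFP OE against 102 and 89.7 in IMA1 OE, a log2 difference of 1.55 (SE 0.08, limma adjusted p 0.0378). AT4G04223, at chr4:2036511-2037816, is annotated as another RNA with no protein. It was at 2.59 and 3.1 in EYFP OE against 27.3 and 29.6 in IMA1 OE, a log2 difference of 2.94 (SE 0.11, limma adjusted p 0.0130). In both genes each IMA1 OE library lay far above each EYFP OE library. In iron-deficient IMA1 OE roots, set against the same EYFP OE libraries, AT3G07720 was at 589 and 492, a log2 difference of 4.04. AT2G05920 and AT4G04223 had log2 differences of 2.46 and 3.02 there, close to those on full medium. Line and medium change together in that comparison.

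PIA1, at chr5:2506656-2508373, encodes an ankyrin repeat protein and was at 0.01 in each EYFP OE library and at 4.84 and 4.91 in IMA1 OE (log2 difference 2.54, SE 0.14, limma adjusted p 0.0384). This call is uncertain. PIA1 overlaps AT5G07830 on the opposite strand, and the rosettes gave 0.01 and 4.53 for the replicates of EYFP OE. The row AT5G07842, whose ID is close to that of PIA1, went the other way, at 9.7 and 8.7 in EYFP OE against 4.55 and 4.61 in IMA1 OE.

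The 3 genes that fell are all annotated as uncharacterised proteins and were near 0 in IMA1 OE. AT3G01345, at chr3:129138-130749, was at 155 and 139 in EYFP OE against 0.88 and 0.09 in IMA1 OE (log2 difference −6.69, SE 0.27, limma adjusted p 0.0153). AT5G15360, at chr5:4987437-4989182, was at 48.3 and 37.8 against 0.17 and 0.27 (log2 difference −5.16, SE 0.15, limma adjusted p 0.00603). AT3G33528, at chr3:14082640-14084346, was at 7.52 and 7.8 against 0.24 and 0.19 (log2 difference −2.83, SE 0.13, limma adjusted p 0.0192). Without a read depth, values this low cannot be told from unread genes. The calls rested on having all 4 libraries. With 1 library left out, 1 gene was called without EYFP OE replicate 1, 0 without EYFP OE replicate 2, 2 without IMA1 OE replicate 1 and 4 without IMA1 OE replicate 2. AT2G05920 kept its call only without IMA1 OE replicate 2 (limma adjusted p 0.0420), and its adjusted p was 0.140 without EYFP OE replicate 1, 0.0772 without EYFP OE replicate 2 and 0.0535 without IMA1 OE replicate 1. AT3G01345 kept its call without either IMA1 OE library, with adjusted p of 0.0132 and 0.00655 in limma, and had 0.30 and 0.166 without either EYFP OE library. The other 5 were not called with any 1 library left out, although no log2 difference of the 7 changed its sign.

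**Figure D2:**
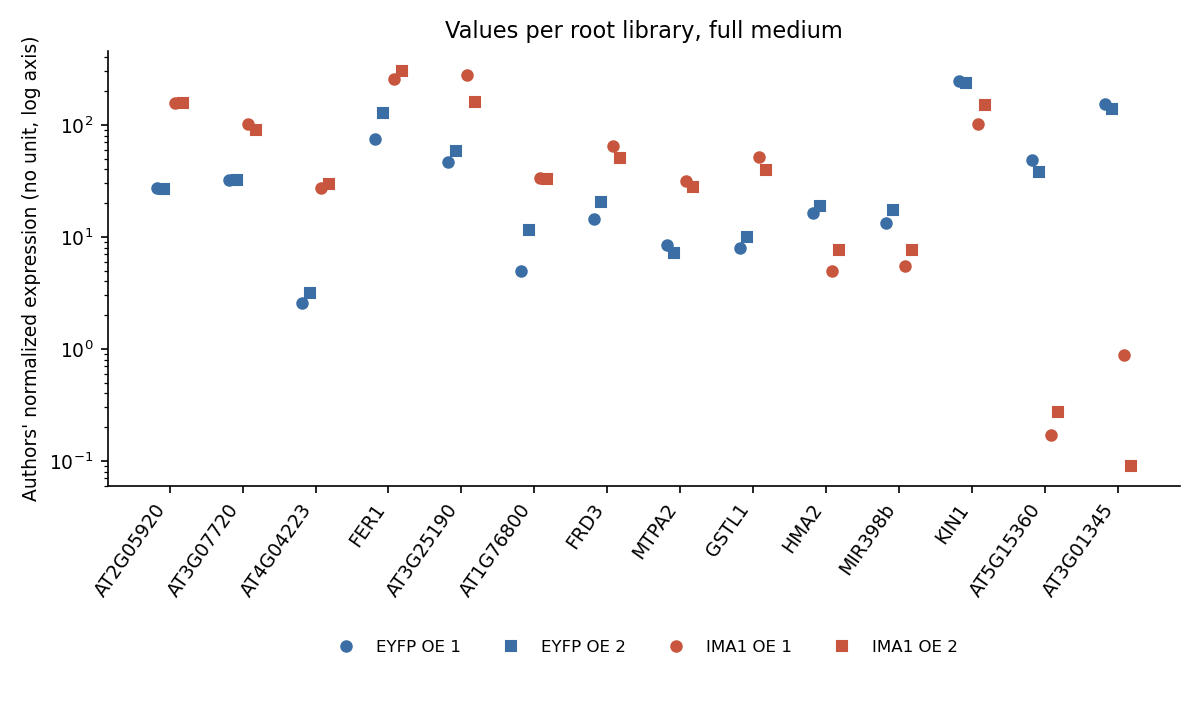
Normalised expression of 14 genes in each root library on full medium (vertical axis, no unit, log scale), with circles for replicate 1, squares for replicate 2, blue for EYFP OE and red for IMA1 OE. The genes to the left, from AT2G05920 to GSTL1, have IMA1 OE points above the EYFP OE points, and those from HMA2 to AT3G01345 have them below.

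Iron storage had the highest median of all lists and families. Of 10 genes for ferritins and vacuolar iron import, 7 were tested, and all 7 were higher in IMA1 OE without overlap. Lack of overlap, in either direction, was found for 30% of all tested genes. Past 1.5-fold higher were 5, beside 0.978% of all tested genes, and the median log2 difference was 1.50 beside −0.01. None was called by limma (smallest adjusted p 0.317), while all 7 had an unadjusted p under 0.05. The plot of values by library shows FER1 and both vacuolar iron transporters apart from the EYFP OE libraries.

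FER1 was at 75.4 and 129 in EYFP OE against 258 and 306 in IMA1 OE, a log2 difference of 1.50 (SE 0.27, limma adjusted p 0.502). FER3 was at 50.4 and 64.2 against 84.5 and 87.4, a log2 difference of 0.59. FER2 and FER4 had smaller differences, 0.39 and 0.40. The EYFP OE libraries of FER1 were far apart, replicate 2 being the higher, yet below both IMA1 OE libraries.

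The other 3 members are annotated only as vacuolar iron transporter family proteins, a family that moves iron from the cytosol into the vacuole. AT3G25190 was at 46.4 and 58 in EYFP OE against 278 and 160 in IMA1 OE (log2 difference 2.0, SE 0.28, limma adjusted p 0.317). AT1G76800 was at 4.95 and 11.5 against 33.5 and 32.8 (log2 difference 1.99, SE 0.35, limma adjusted p 0.504). AT1G21140 was at 14.7 and 34.8 against 84.3 and 85.7, a log2 difference of 1.86. For each of these the lines did not overlap, and EYFP OE replicate 1 was the lowest library. VIT1, the founding vacuolar iron transporter, was below the filter at 0.09 to 0.29 in the 4 libraries. With 1 library left out at a time the list's median ran from 1.12 to 1.88.

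The same genes had other values in iron-deficient IMA1 OE roots, a comparison that uses the same EYFP OE libraries and changes line and medium together. FER1 was there at 86.9 and 80.7 in IMA1 OE, a log2 difference of −0.23, and AT1G76800 at 2.57 and 3.58, a log2 difference of −1.06. The storage list had 3 of 7 members higher and a median of −0.13 in that comparison. The uptake list had 12 of 12 higher in each, with medians of 0.77 on full medium and 3.07 in iron-deficient roots.

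The genes of iron uptake and coumarin release were higher as a group but are only a part of the picture. Of 13 members 12 were tested, 12 were higher, 10 without overlap, 7 past 1.5-fold, with a median log2 difference of 0.77, and none was called. The shares over all tested genes were 30% without overlap in either direction and 0.978% past 1.5-fold higher. FRO2, the ferric reductase of the root surface, was at 10.6 and 16.1 against 99.8 and 84.3 (log2 difference 2.72, limma adjusted p 0.0865). IRT1 was at 13.4 and 23.1 against 161 and 136 (log2 difference 3.0, limma adjusted p 0.128). CYP82C4, a cytochrome P450 that makes the coumarin sideretin, was at 3.54 and 8.42 against 48.5 and 41.2. Members with other steps of acidification and secretion differed little, such as HA2, a plasma membrane proton pump, with a log2 difference of 0.18, and ABCG37, a coumarin exporter, with 0.30.

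Among the regulators the difference lay in a few genes. Of 14 tested, 12 were higher, 5 past 1.5-fold higher and 1 lower, and the median was only 0.09. Beside these counts, 0.978% of all tested genes were past 1.5-fold higher and 0.456% lower. The subgroup Ib factors stood apart: bHLH38 was at 3.11 and 2.55 against 23.3 and 14.9 (log2 difference 2.36, limma adjusted p 0.157). BHLH100 was at 0.69 and 0.77 against 13.7 and 8.53 (log2 difference 2.77, limma adjusted p 0.113). bHLH39 was at 5.94 and 2.68 against 32.1 and 21.5, and bHLH38 and bHLH39 are neighbouring loci. In all of them IMA1 OE replicate 1 was the highest library. The factors that act above them, bHLH34, bHLH104 and bHLH121, had log2 differences between −0.04 and 0.02. AT1G47395, which lies close to AT1G47400 on the chromosome and has no gene name in RefSeq, was at 12.2 and 3.99 in EYFP OE against 1.18 and 1.7 in IMA1 OE, a log2 difference of −1.74 (limma adjusted p 0.889).

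Iron chelation and long-distance transport split in both directions. Of 11 tested genes 6 were higher and 5 lower, all 11 without overlap between the lines, and 4 were past 1.5-fold higher and 1 lower. Beside these counts, 30% of all tested genes did not overlap, 0.978% were past 1.5-fold higher and 0.456% lower. FRD3, which loads citrate into the xylem for iron transport to the shoot, was at 14.5 and 20.5 against 65.1 and 50.4 (log2 difference 1.67, SE 0.20, limma adjusted p 0.236). NAS1 and NAS2 make nicotianamine, a metal chelator, and had log2 differences of 1.39 and 1.18. Their relative NAS4 was lower, at 17.7 and 15.7 against 5.98 and 12.5, a log2 difference of −0.86. NRAMP3, which releases iron from the vacuole, was at 9.63 and 10.3 against 23.6 and 17.5. OPT3, which loads iron into the phloem, was lower without reaching 1.5-fold, at 14.1 and 9.74 against 8.01 and 8.21.

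The list of transporters for removing zinc, cobalt, nickel and manganese from the cytosol had 4 of 9 tested genes past 1.5-fold higher and 0 lower. Among all tested genes these shares were 0.978% and 0.456%. The list's median was 0.27, with no call by limma. The median was 0.14 without IMA1 OE replicate 1, and 4 genes were past 1.5-fold higher with any 1 library left out. MTPA2, also known as MTP3, moves zinc into the vacuole and was at 8.53 and 7.19 against 31.6 and 27.7 (log2 difference 1.79, SE 0.12, limma adjusted p 0.0637). IREG2 moves nickel and cobalt into the vacuole and was at 4.72 and 6 against 10.7 and 10.1, a log2 difference of 0.85. HMA3, a gene of the heavy metal pump family, was at 1.4 and 1.63 against 4.54 and 3.25, and whether its product works in these lines was not tested. AT3G58060, annotated as a cation efflux protein, was at 0.49 and 0.41 against 2.76 and 2.36. The other 5, ZAT and ZIF1 among them, had log2 differences from −0.10 to 0.27. This group was thus uneven, with 4 genes apart and 5 close to the control.

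Genes of the zinc deficiency response mostly stayed close to the control. Of 10 tested, 6 were higher and 4 lower with a median of 0.09 (−0.04 without EYFP OE replicate 1), and the uptake transporters ZIP1, ZIP3, ZIP4 and ZIP5 had log2 differences between −0.15 and 0.31. The exception was HMA2, a pump that loads zinc into the xylem, which was at 16.4 and 18.8 in EYFP OE against 4.94 and 7.68 in IMA1 OE (log2 difference −1.37, SE 0.20, limma adjusted p 0.354). HMA4, its relative with the same role, was at 41.4 and 41 against 49.2 and 41. HMA2 and HMA3 were past 1.5-fold in opposite directions.

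Copper genes had a mixed pattern. Of 13 tested, 6 were higher and 7 lower, with 1 past 1.5-fold in each direction. The shares past 1.5-fold over all tested genes were 0.978% higher and 0.456% lower. COPT2, a copper importer of the root surface, was at 2.02 and 2.12 against 6.68 and 5.52, a log2 difference of 1.2 (limma adjusted p 0.197). FRO4, a copper reductase, was at 2.63 and 1.63 against 0.71 and 1.13, a log2 difference of −0.70. The precursor of miR398b was at 13.2 and 17.5 in EYFP OE against 5.51 and 7.69 in IMA1 OE (log2 difference −1.11, SE 0.20, limma adjusted p 0.504). It overlaps AT5G14550 on the opposite strand, and libraries of polyadenylated RNA give the precursor and not the mature arms printed above. CSD1, CSD2 and CCS, which are among the known targets of miR398b, were each a little higher in both IMA1 OE libraries. CSD1, a cytosolic copper and zinc superoxide dismutase, was at 433 and 426 against 529 and 501, a log2 difference of 0.26. CSD2, its plastid counterpart, was at 153 and 166 against 170 and 192, and CCS, the chaperone that loads copper into both, at 44.6 and 45.1 against 55.1 and 49.7. The log2 differences of CSD2 and CCS were 0.18 and 0.22, under 1.5-fold.

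The listed users of iron, and the proton pumps that acidify the soil, were close to the control. Of 25 tested genes of iron-sulfur cluster assembly, 13 were higher and 12 lower, 0 were past 1.5-fold and 0 had an unadjusted p under 0.05 in limma, and their log2 differences ran from −0.09 to 0.10. SUFE2, a SUF gene outside this list, was past 1.5-fold higher, with log2 differences of 0.80 in roots and 1.06 in rosettes. Heme catalases and ascorbate peroxidases had 6 of 9 higher, a median of 0.07 and 0 past 1.5-fold. Plasma membrane proton pumps had 6 of 9 higher, a median of 0.03 and 0 past 1.5-fold, and 4 of 9 higher without EYFP OE replicate 1, EYFP OE replicate 2 or IMA1 OE replicate 2. A difference that misses the threshold does not show that levels were equal.

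Methionine is the precursor of nicotianamine and ethylene, and its cycle recovers the by-product methylthioadenosine. All 10 tested genes of this list were above 0 in log2 difference, by 0.00 to 0.62, with a median of 0.09. Among them 6 were without overlap, which holds for 30% of all tested genes in either direction. The 3 with the largest differences carry salvage steps. AT2G05830, annotated as an NagB/RpiA/CoA transferase-like protein, was at 30.7 and 34.8 against 50.9 and 50.5 (log2 difference 0.62, limma adjusted p 0.268). MTK, the methylthioribose kinase, was at 42.4 and 42.9 against 58.8 and 60.8, and ATARD2, an acireductone dioxygenase, at 66.6 and 71.5 against 99.6 and 92.7. With IMA1 OE replicate 1 or EYFP OE replicate 2 left out, 7 of the 10 were higher. Ethylene synthesis and signalling had 8 of 14 higher and a median of 0.03.

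Glutathione transferases, which conjugate or bind small molecules, were matched by gene symbol. Of 41 tested, 28 were higher and 13 lower, 5 were past 1.5-fold higher and 0 lower, and the median was 0.08. Among all tested genes 46.1% were above 0, 0.978% past 1.5-fold higher and 0.456% past 1.5-fold lower. GSTL1 was at 7.91 and 10 against 51.4 and 39.9 (log2 difference 2.22, SE 0.17, limma adjusted p 0.0865). GSTF2 was at 94.3 and 81.1 against 182 and 170 (log2 difference 1.0, limma adjusted p 0.157), and GSTF7 at 15.3 and 16.3 against 47.1 and 31.9. Each IMA1 OE library lay above each EYFP OE library in these 3 genes. GSTF12, chosen after its values were seen, works in anthocyanin transport and was at 0.41 in IMA1 OE replicate 1 and 9.7 in replicate 2. The anthocyanin enzymes DFR and LDOX, chosen in the same way, were at 0.21 and 0.06 in IMA1 OE replicate 1 and at 9.98 and 9.99 in replicate 2, within or below an EYFP OE range of 6.19 to 16.7. GSTF12 was at 8.76 and 15.1 in EYFP OE, so in these genes IMA1 OE replicate 1 stood apart and replicate 2 lay within the EYFP OE range.

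Defence lists had most members above the control by small amounts, and the jasmonate list turned with the library. Pattern-triggered immunity had 14 of 15 tested genes higher with a median of 0.36, but 0 were past 1.5-fold without overlap. WRKY46, a defence transcription factor, was at 12.5 and 5.61 against 20.2 and 8.35, so the lines overlapped. With IMA1 OE replicate 1 left out that list had 9 of 15 higher and a median of 0.09. Salicylic acid defence had 14 of 16 higher and a median of 0.18, and without any 1 library it had 12 to 14 higher. The WRKY family had 41 of 50 higher and a median of 0.15. In it 1 gene, WRKY45, was past 1.5-fold higher, at 4.26 and 4.23 against 6.18 and 7.7, beside 0.978% of all tested genes. Leaving out IMA1 OE replicate 1 gave 35 of 50 higher and a median of 0.09. No gene of these lists was called by limma, and the part of that library in the values was not tested. Glucosinolate synthesis had 13 of 15 higher and a median of 0.10. Jasmonate genes had 15 of 23 higher and a median of 0.06. That direction turned with the library left out, to 2 of 23 higher (median −0.19) without IMA1 OE replicate 1 and 8 of 23 (−0.16) without EYFP OE replicate 2, and to 17 (0.37) without EYFP OE replicate 1 and 18 (0.45) without IMA1 OE replicate 2. VSP2, a jasmonate-induced storage protein, was at 83.6 and 72.6 against 35.3 and 44.9, a log2 difference of −0.95 (limma adjusted p 0.354).

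**Figure D3:**
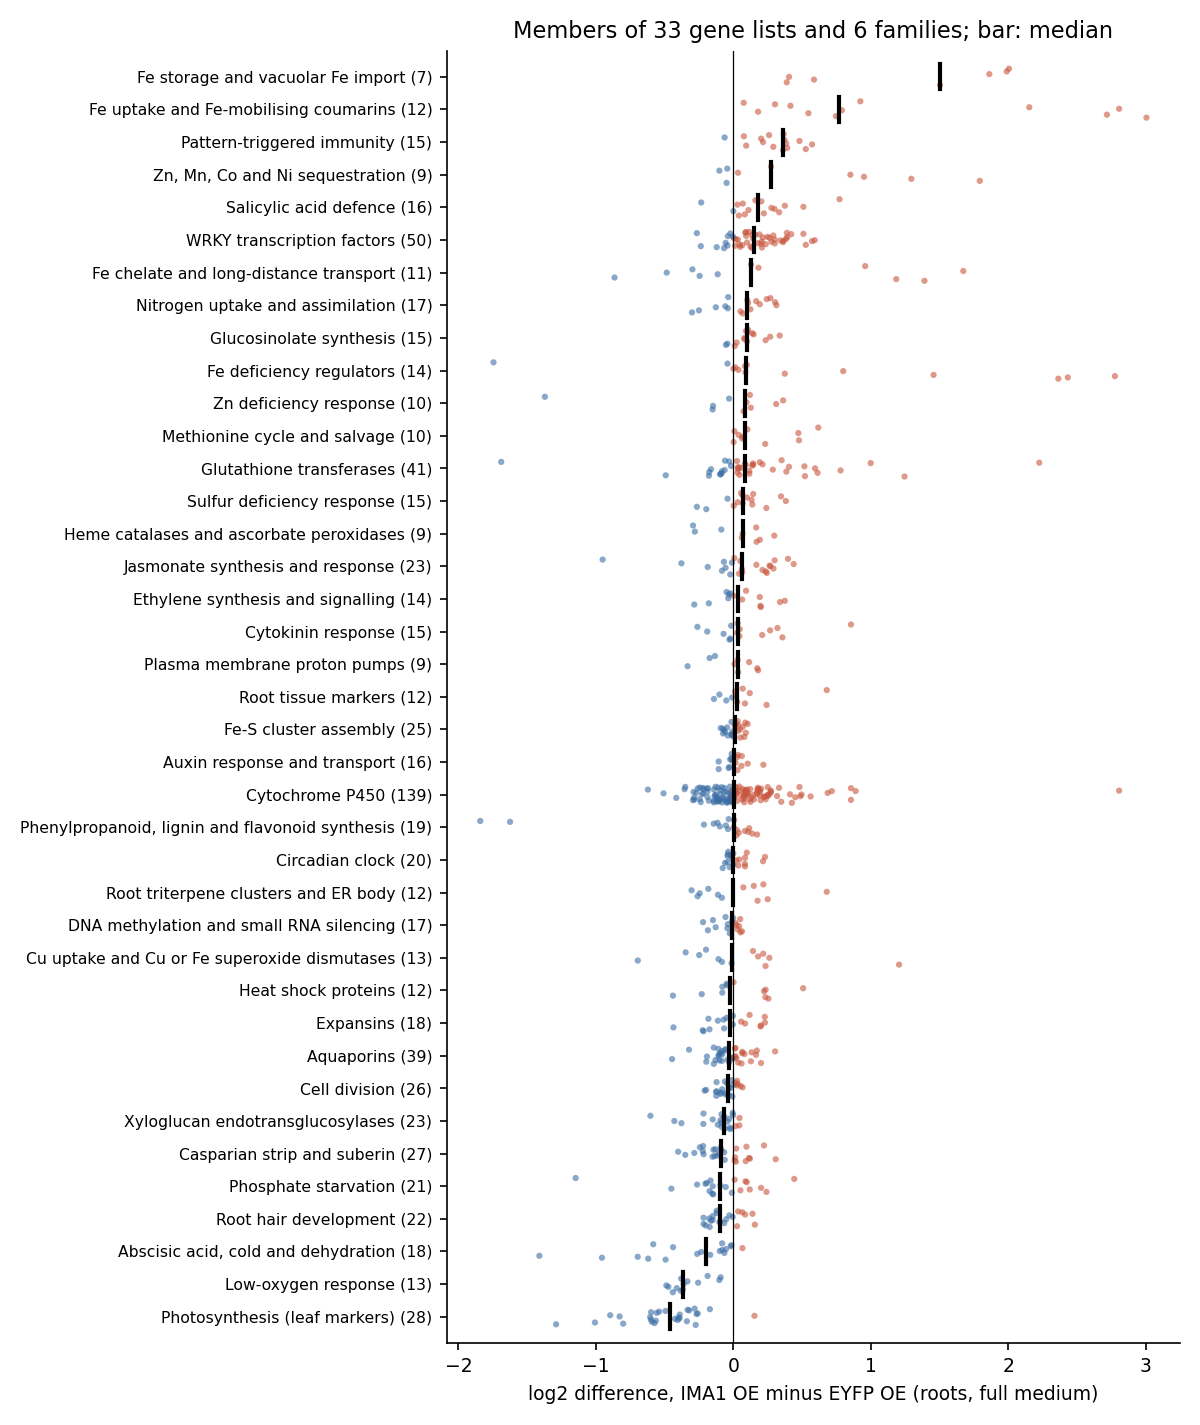
Log2 difference, IMA1 OE minus EYFP OE, of each tested member of 33 gene lists and 6 families (horizontal axis), with the number tested in brackets and the median as a black bar; red points are above 0 and blue points below. Iron storage is at the top with a median of 1.50 and leaf photosynthesis markers at the bottom with −0.46, and most other medians lie near 0.

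The plot of all lists places most functions near the control. When 1 library was left out in turn, the median changed its sign in at least 1 case for 24 of the 39 lists and families. Nitrogen uptake and assimilation had 11 of 17 higher with a median of 0.10, and 6 of 17 (median −0.08) without EYFP OE replicate 1. Sulfur deficiency genes had 12 of 15 higher with 0.07, and 4 of 15 without IMA1 OE replicate 1 (−0.08) or EYFP OE replicate 2 (−0.10). Auxin genes had 8 of 16 higher and the clock 9 of 20, each with a median of 0.00. Cell division genes were lower for 20 of 26, by a median of −0.04 and at most −0.21, but 16 of 26 were higher without IMA1 OE replicate 1 or EYFP OE replicate 2. Phosphate starvation had 13 of 21 lower and a median of −0.09, and 13 of 21 higher (median 0.01) without IMA1 OE replicate 1. AT5G03545, a transcript known to be induced by phosphate starvation, was at 75.6 and 72.1 against 22.4 and 47.7. Casparian strip and suberin genes were lower for 17 of 27, with a median of −0.09, and 15 of 27 were higher (median 0.02) without EYFP OE replicate 1. Root hair genes were lower for 16 of 22, with −0.10. The root hair list without IMA1 OE replicate 1 had 14 of 22 higher. Xyloglucan endotransglucosylases, which loosen cell walls, were lower for 20 of 23 with a median of −0.07, and 12 of 23 were higher (median 0.00) without IMA1 OE replicate 1. Heat shock genes had 6 of 12 higher, and their summed values were 171 and 212 in EYFP OE and 357 and 121 in IMA1 OE, so that the IMA1 OE libraries enclosed the EYFP OE libraries. That list had 1 of 12 higher without IMA1 OE replicate 1 and 11 of 12 without IMA1 OE replicate 2.

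The lowest medians belonged to 3 lists in which IMA1 OE replicates differed. Leaf photosynthesis markers were lower for 27 of 28, of which 19 without overlap and 7 past 1.5-fold, with a median of −0.46. Among all tested genes 30% had no overlap in either direction and 0.456% were past 1.5-fold lower. CAB1, a light-harvesting protein, was at 326 and 242 in EYFP OE against 135 and 192 in IMA1 OE. LHCB2.2, another, was at 15.7 and 12.6 against 5.44 and 7.73 (log2 difference −1.01, limma adjusted p 0.534). Without IMA1 OE replicate 1 the list was still lower for 23 of 28, with a median of −0.17, and 1 was past 1.5-fold in each direction. Without IMA1 OE replicate 2 it was lower for 28 of 28, with a median of −0.83 and 23 past 1.5-fold. In rosettes the same list had a median of 0.00. CAB1 was there at 10937 and 11895 in EYFP OE and at exactly the same values in IMA1 OE.

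Low-oxygen genes were lower for 13 of 13, with a median of −0.37, but 0 of them had lines that did not overlap. ADH1, the alcohol dehydrogenase of fermentation, was at 298 and 456 in EYFP OE against 173 and 425 in IMA1 OE. HB1, a hemoglobin induced in low oxygen, was at 126 and 196 against 72.4 and 175. IMA1 OE replicate 1 was the lowest library in both and replicate 2 lay within the EYFP OE range. Without IMA1 OE replicate 1, 10 of 13 were higher with a median of 0.12, and without replicate 2 the median was −0.84. The EYFP OE replicates also differed, with summed values of 998 and 1464 beside 675 and 1324 in IMA1 OE, replicate 1 being the lower in both lines.

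Abscisic acid, cold and dehydration genes were lower for 17 of 18, with a median of −0.20 and 3 past 1.5-fold lower. Among all tested genes 0.456% were past 1.5-fold lower. COR15A, among the 3, rested on IMA1 OE replicate 1 being near 0, as given further on. KIN1 and KIN2, adjacent cold-induced genes, were the clearest. KIN1 was at 246 and 238 in EYFP OE against 102 and 151 in IMA1 OE (log2 difference −0.96, limma adjusted p 0.604), and KIN2 at 347 and 325 against 179 and 240. These paralogs are close copies, so reads may have been split between them. Without IMA1 OE replicate 2 the list had 8 of 18 higher and a median of −0.05. The median was −0.29 without IMA1 OE replicate 1, −0.14 without EYFP OE replicate 1 and −0.38 without EYFP OE replicate 2.

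**Figure D4:**
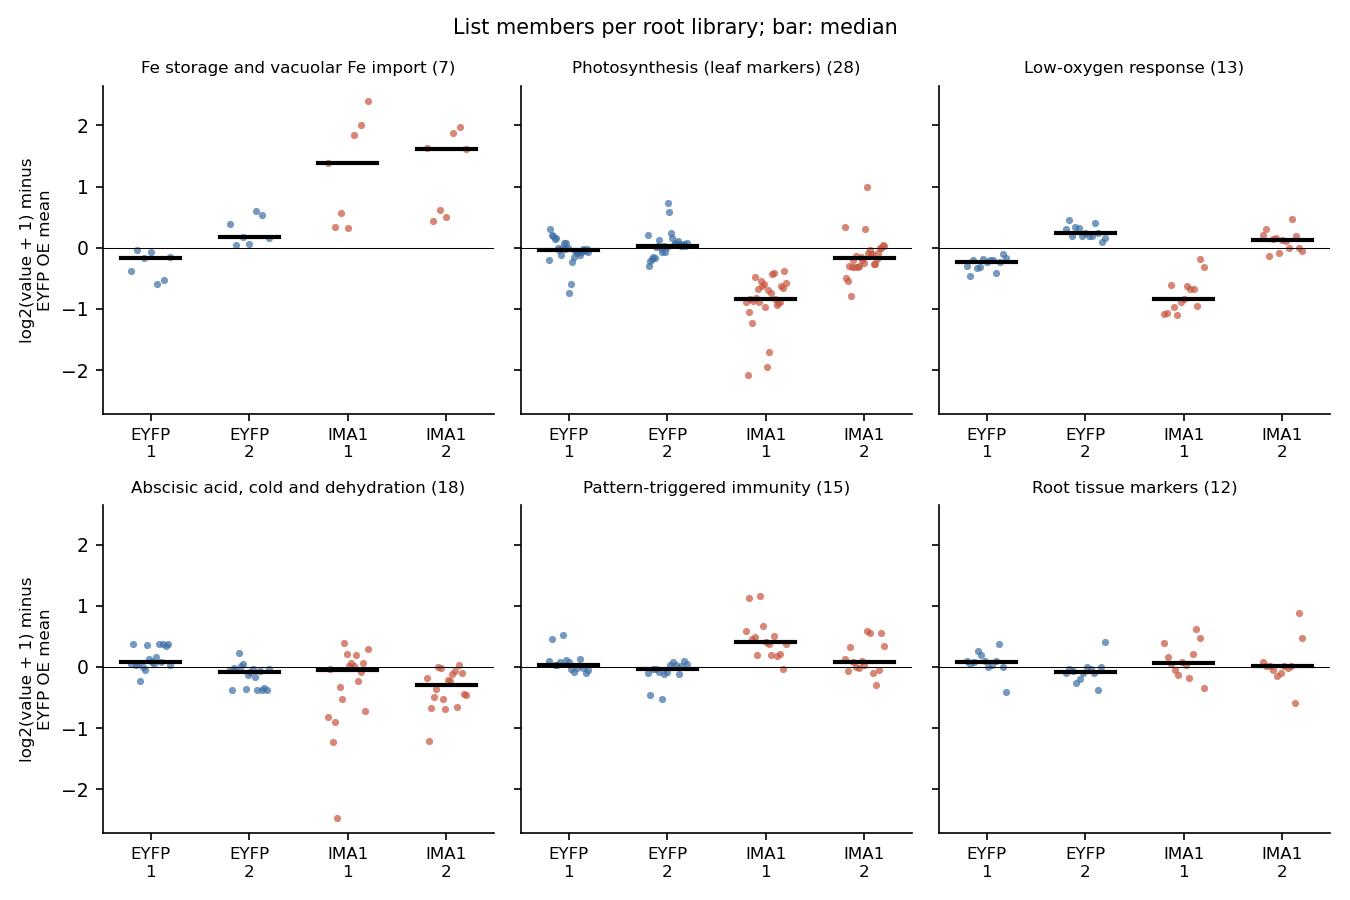
Log2(value + 1) of each list member minus its EYFP OE mean (vertical axis) in each of the 4 root libraries (horizontal axis), for 6 lists with the number tested in brackets; bars are medians. Iron storage genes are raised in both IMA1 OE libraries, whereas leaf photosynthesis and low-oxygen genes are lowest in IMA1 OE replicate 1, and root tissue markers lie around 0 in each library.

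The plot of lists by library shows that the storage genes separated the lines and the low-oxygen genes separated the replicates within both lines, by more in IMA1 OE. Over all genes past 1.5-fold, 61 of the 90 lower genes were lower in IMA1 OE replicate 1 than in replicate 2, and 134 of the 193 higher genes were higher in it. The part of this library in those counts was not tested beyond leaving it out.

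Outside the lists, 10 groups of RefSeq products were counted, and these groups and the genes named from them were chosen after their values were seen. Of 4 tested precursors of phytosulfokine, a peptide growth signal, 3 were past 1.5-fold higher. The share past 1.5-fold higher over all tested genes was 0.978%, and groups picked by their values lie above it by choice. PSK4 was at 19.6 and 16.9 against 55.1 and 36.8, and PSK2 at 20.7 and 17.4 against 50.4 and 23.3. Germin-like and other cupin proteins had 7 of 27 past 1.5-fold higher, with a median of 0.11. GLP5, a germin-like protein, was at 253 and 228 against 486 and 402. Of these, 4 cupin rows, AT5G39110, AT5G39120, AT5G39160 and GER2, lie near one another on the chromosome and are near relatives, so reads may have been split between them.

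The other groups differed in direction, beside shares past 1.5-fold over all tested genes of 0.978% higher and 0.456% lower. CAP proteins had 5 of 13 higher with a median of −0.10, 3 of them past 1.5-fold higher, and subtilases had 6 of 17 higher with −0.06, 2 of them past 1.5-fold. Lipid-transfer proteins had 21 of 45 higher, with 3 past 1.5-fold higher and 2 lower, and class III peroxidases had 28 of 56 higher. Phloem protein 2 genes had 11 of 17 higher with a median of 0.05, and chitinases 7 of 8 with 0.12. Defensin-like proteins had 6 of 8 higher with 0.48, and oxygenases of the 2-oxoglutarate and Fe(II) class 48 of 73 with 0.05.

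UGT72E1, a glucosyltransferase of phenylpropanoids, was at 18.8 and 20.4 against 76.3 and 60.9 (log2 difference 1.75, limma adjusted p 0.0764). PP2-A8, a phloem protein, was at 16.4 and 17.4 against 39.3 and 38.5 (log2 difference 1.16, limma adjusted p 0.050), at the threshold without passing it. AT4G33720, of the CAP family that holds PR1, was at 93.2 and 124 against 311 and 357. In these 3 the replicates of a line were closer to each other than the lines were. OSM34, an osmotin-like defence protein, was at 162 and 157 against 284 and 321, and AT1G73120, an F-box protein named by size of difference, at 4.64 and 12 against 70.2 and 65.7.

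Some lower genes rested on a single library. AT1G58983 and AT1G58684, ribosomal protein S5 copies, carried identical values, 181 and 177 in EYFP OE and 0.02 and 173 in IMA1 OE, so that only IMA1 OE replicate 1 was low. AT1G48598 was at 36.5 and 42.2 against 33.8 and 0.01, and COR15A, a cold-induced protein, at 4.13 and 6.09 against 0.09 and 3.72. The 5.8S ribosomal RNA row AT3G41979 was at 2438 and 3079 against 577 and 194, a log2 difference of −3.03 (limma adjusted p 0.467). Ribosomal RNA is not the target of a poly(A) selection, and this row overlaps AT3G06355 on the same strand. Plastid genes were lower for 21 of 36 and included 3 past 1.5-fold lower, while mitochondrial genes had 5 of 39 past 1.5-fold higher. Over all tested genes 0.456% were past 1.5-fold lower and 0.978% higher.

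Rosettes of the same lines, grown on the same medium, share no library with the roots and show which differences were also seen there. Of the 193 higher genes 110 were tested in rosettes, and 41 of these were past 1.5-fold higher there too. That is 37.3% of them and 9.19% of the 446 rosette genes past 1.5-fold higher, where the rosette background over genes tested in both was 2.58%. Of the 90 lower genes 55 were tested in rosettes and 8 were past 1.5-fold lower there, which is 14.5% of them and 8.89% of the 90 such rosette genes, beside a background of 0.52%. The counts past 1.5-fold in the opposite direction were 3 and 0. Across 17311 genes the root and rosette differences had a Pearson's r of 0.35 and a Spearman's rho of 0.24, across genes that are not independent.

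**Figure D5:**
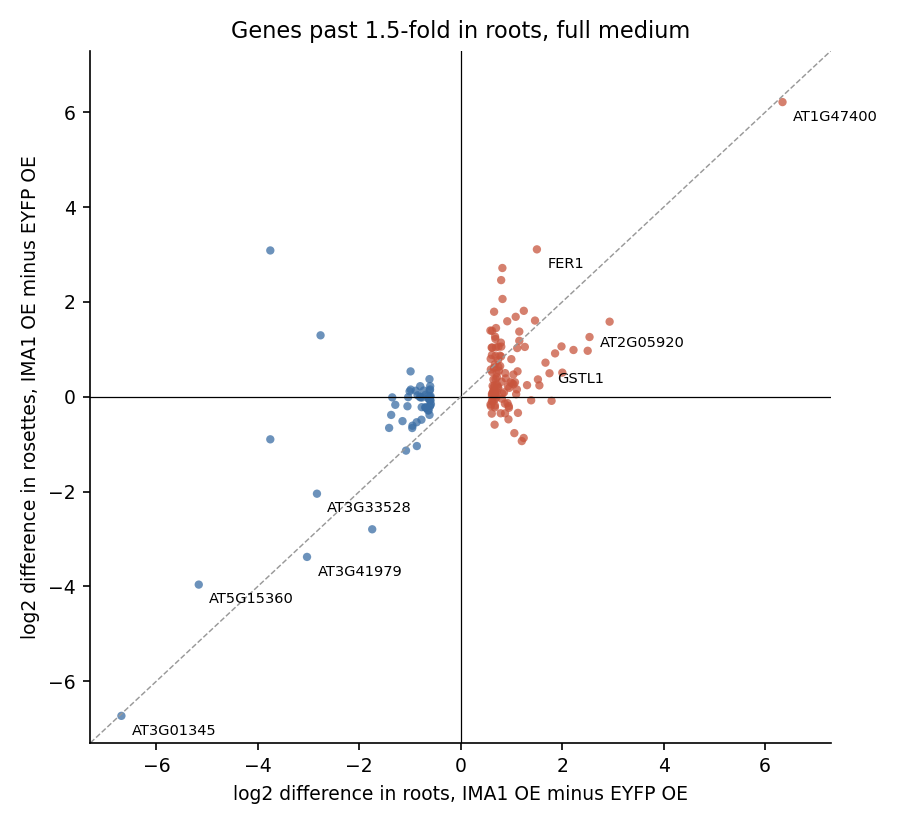
Log2 difference, IMA1 OE minus EYFP OE, in rosettes (vertical axis) against that in roots (horizontal axis), for genes past 1.5-fold without overlap in roots that were also tested in rosettes; red is higher and blue lower in IMA1 OE roots, and the dashed line marks equal differences. AT1G47400 and AT3G01345 lie near the line, and many red points lie near 0 in rosettes.

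The plot of root against rosette differences holds genes with a like difference in both tissues beside genes near 0 in rosettes. AT3G01345 was also near 0 in IMA1 OE rosettes, at 140 and 129 in EYFP OE against 0.55 and 0.05 in IMA1 OE, and it fell there (log2 difference −6.73, limma adjusted p 0.00862, one of 2 rosette genes called of 18731, 0.0107%). FER1 was at 59.4 and 279 in EYFP OE rosettes against 1265 and 994 in IMA1 OE rosettes, a log2 difference of 3.11 (limma adjusted p 0.491). MTPA2 was at 1.4 and 1.02 in EYFP OE rosettes against 1.42 and 0.78 in IMA1 OE rosettes, a log2 difference of −0.09. The root minus rosette difference of MTPA2 was 1.88 (SE 0.26, limma adjusted p 0.161), and that of AT3G07720 was 1.31 (SE 0.13, limma adjusted p 0.122). The storage list had 7 of 7 higher in rosettes, with a median of 1.06. Of 19741 interaction terms 1 was called by limma (0.00507%) and 750 had an unadjusted p under 0.05 (3.8%), so neither MTPA2 nor AT3G07720 was shown to differ between the tissues.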

How the data were processed

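Polyadenylated RNA of 2 EYFP OE and 2 IMA1 OE root samples was sequenced with a stranded kit, per the labels' protocols, with RNA integrity of 9.8 to 10. The submitters' processing notes name bcl2fastq 1.8.4, Trimmomatic 0.35, Bowtie2 2.0.6, edgeR 3.12.1, limma 3.26.9 and the build TAIR10, with no role or order. The expression values are a normalized signal that the authors deposited in 4 tables, normalized separately, of which 3 were used. The table names give TMM and no unit. Depth is unknown, so no interval or detection limit is given. The authors also deposited a log2 fold change and a p-value per gene, per the file headers, and these were used only as the authors' own. Sorted values differed by at most 8.54% between the 4 columns above the median, with the 20 highest left out. The 4 rows for constructs were left out, and 32835 of 33607 gene IDs matched RefSeq TAIR10.1, from which names, coordinates and sequences were taken.

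From the deposited signal, limma 3.58.1 in R 4.3.3 (lmFit, eBayes with trend) was run on log2(value + 1), two-sided, with Benjamini-Hochberg adjustment over all tested genes and no replicate block. The interaction term over 8 root and rosette columns gave differences between tissues. The fit was tested on simulated data. The labels give no sequencing batch. The members, 33 gene lists and 6 families were chosen with earlier results of these data known. Genes named are AT1G47400, called genes, the 12 largest differences in each direction among genes with unadjusted p under 0.01 and no overlap, and up to 3 members with the smallest p of each list. Other list members and genes named beside these were chosen after their values were seen.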

Additional observations from a re-analysis of the deposited data

Results flagged for a closer look

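AT2G23672 was the gene whose line difference itself differed between roots and rosettes in limma's interaction test. In roots it was at 2.59 and 1.38 in EYFP OE against 0.81 and 1.51 in IMA1 OE, a log2 difference of −0.46, and the lines overlapped. In rosettes it was at 69.9 and 71 against 0.02 and 0.02, a log2 difference of −6.13. The root minus rosette difference was 5.68 (SE 0.32, limma adjusted p 0.0103), and it was not called with the replicate number as a block (limma adjusted p 0.164). The gene overlaps AT2G23670 in the annotation, so its value is uncertain.

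The rows for the transgene constructs, which enter no comparison, held a signal above the level in the other line. The IMA1 construct was at 318 and 298.2 in IMA1 OE roots and at 0.26 and 0.13 in EYFP OE roots. The EYFP construct was at 1789 and 1337.14 in EYFP OE roots and at 0.46 and 0.54 in IMA1 OE roots. The construct of another gene of the family, IMA3, was listed at 0 in EYFP OE roots and at 0.04 and 0.02 in IMA1 OE roots.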

How the results depend on the processing

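With 2 libraries a group, called counts moved with the processing. The 7 calls became 5 at a pseudocount of 0.1, 9 at 5, 5 with a filter of at least 5, 6 without the intensity trend and 8 after quantile normalization. Quantile normalization could change little, because sorted values above the median already differed by at most 8.54%, with the 20 highest left out. Without the filter there were 143 calls, 71 higher and 72 lower, of which 135 had every value under 1 and 5 were among the 7. The labels do not say whether replicate numbers mark a shared batch, and same-numbered deviations correlated at 0.27 over 2 pairs, too few to decide it. With the replicate block there were 16 calls, 13 higher and 3 lower, with all 7 among them. Leaving out 1 replicate gave 0 to 4 calls, 0 to 1 higher and 0 to 3 lower. Past 1.5-fold, the higher count of 193 became 297 at pseudocount 0.1, 78 at pseudocount 5 and 112 with a filter of at least 5, and the lower count of 90 became 177, 26 and 47. Leaving out 1 replicate, which makes groups less likely to overlap by construction, gave 228 to 483 higher and 164 to 374 lower. The interaction count of 1 became 3 at pseudocount 0.1, 136 without the filter and 0 with the replicate block. Over the 7 called genes and all alternatives no direction reversed. AT3G01345 was not called at pseudocount 0.1 or without the filter (limma adjusted p 0.153 and 0.130, over alternatives 0.00213 to 0.30), AT3G07720 without the trend or the filter (0.119 and 0.128, over alternatives 0.0221 to 0.424), PIA1 at pseudocount 0.1 (0.0852, over alternatives 0.00351 to 0.339) and AT3G33528 with a filter of at least 5 (0.0747, over alternatives 0.00917 to 0.349). Among 133 named genes 1403 alternative values kept direction and side of the threshold, 31 lost the call, 7 gained it and 6, none of a called gene, changed sign. With 1 replicate left out, those 6 ran from −0.67 to 0.0029 for AT3G10040, −1.45 to 0.58 for HSP17.6A, −0.22 to 0.057 for HSP18.2, −0.40 to 1.42 for HSP90.1, −0.23 to 0.013 for IAA2 and −0.0098 to 0.80 for ORA59. Among list medians 401 stayed within the spread and 28 moved, and 24 of 39 lists changed the sign of the median with 1 replicate left out. The causes were not tested. Depth is unknown, so low values limit every fold.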
